A study of Gallus gallus with 51 samples.

Results

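The comparison is of the neomycin response of the chick cochlear sensory epithelium between 24 hr and 48 hr of recovery. For every probe it is the log2 ratio of neomycin over control signal in the 3 biological replicates at 48 hr minus that in the 3 biological replicates at 24 hr. These 6 replicates were measured on 34 of the 51 arrays of the series (16 at 24 hr and 18 at 48 hr), and the series holds 9 replicates in all. A positive difference means that the neomycin/control ratio was higher at 48 hr than at 24 hr. It can come from either RNA, since each ratio is set against its own time-matched control.

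The samples were cochlear sensory epithelia of post-hatch chicks (Gallus gallus), in which hair cells and the supporting cells around them form the lining of the hearing organ. In the 24hr group, organ cultures were treated with neomycin and then kept in neomycin-free medium for 24 hr, and the 48hr group was kept for 48 hr. Each was hybridised against RNA of cultures that had not received neomycin and were otherwise held the same way. The organ culture method was the same for both groups. Each biological sample pooled several epithelia, and its RNA was amplified before labelling. The probes had been designed to human transcription factor genes, so the names below are those of the array design. In such bulk RNA, fewer cells of a type and less RNA per cell cannot be told apart.

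Neomycin is an aminoglycoside antibiotic that kills hair cells. In birds, supporting cells divide or change identity to replace the hair cells that were lost, and in culture the second day after injury is when many of them enter S phase. Transcription factors with known roles in this tissue include POU4F3, which hair cells need to survive, ATOH1, which starts hair cell differentiation, SOX2, a factor of sensory progenitors and supporting cells, and the HES and HEY repressors, which act downstream of Notch.

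No probe passed the test. Over 1282 tested probes, 0 had an adjusted p under 0.05 (0%), and the smallest adjusted p in limma was 0.848. At an unadjusted p under 0.05, 25 probes had a higher ratio at 48 hr (1.95%) and 26 a lower one (2.03%), together 51 probes, where 5% of the tested probes would be 64.1. The replicates of both times did not overlap for 51 probes that were higher at 48 hr (3.98%) and for 78 that were lower (6.08%). The ratios below are therefore descriptions of what was largest, with their spread and standard error (SE), and none stood out from the replicate error over the whole array. Each SE is that of the difference between both times in the limma fit over all 9 replicates. That fit pools the spread of 0 hr, 24 hr and 48 hr and moderates it across probes. The SE is therefore not the spread of the 6 values at 24 hr and 48 hr alone. No test on such data shows that the response was the same on both days: the median standard error of a difference was 0.24 on the log2 scale.

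The 6 replicates were not measured equally well. A probe was called above background on an array when its signal exceeded the 95th percentile of that array's negative-control spots in the same dye. Of the probe measurements of neomycin RNA, 11% were above it in replicate 1 at 24 hr, 15.8% in replicate 2 and 41.1% in replicate 3. At 48 hr the shares were 6.75%, 53.6% and 41.2%. Replicate 1 therefore had the lowest share above background at both times, although it had the most arrays. The spread of the ratios was also uneven. In replicate 2 at 24 hr, 92 probes had a log2 ratio below -1, against 28 and 14 in replicates 1 and 3, and in replicate 1 at 48 hr 58 probes lay below -1 and 43 above 1. In replicates 2 and 3 at 48 hr, 2 and 0 probes lay below -1. The genes described next were chosen among the 384 tested probes that were above the negative controls in both RNAs on at least 20% of the arrays at both times: the 12 with the smallest p among those higher at 48 hr and 11 of the 12 among those lower.

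**Figure D1:**
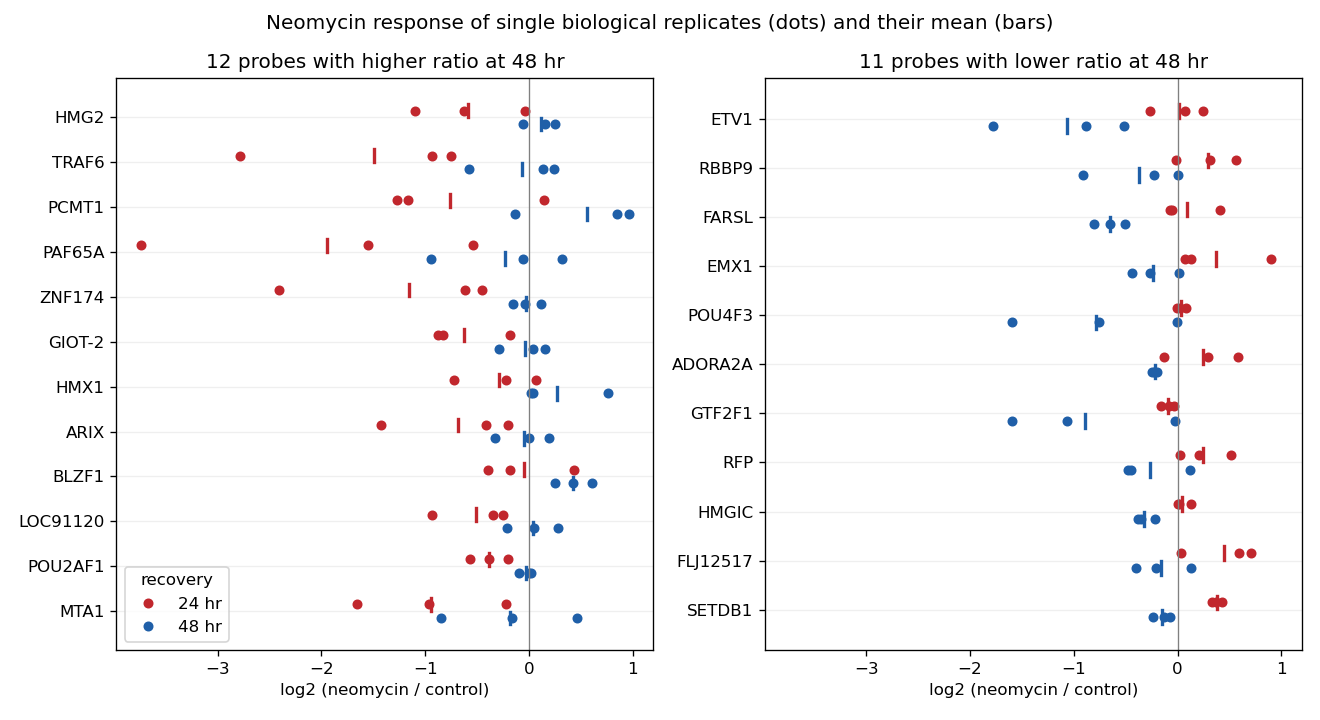
Log2 ratio of neomycin over control (x axis) in each biological replicate at 24 hr (red) and 48 hr (blue), with bars at the mean of 3 replicates, for the 12 detected probes with the smallest p that were higher at 48 hr and 11 that were lower. The widest points are PAF65A at -3.74, TRAF6 at -2.79 and ZNF174 at -2.41, all in replicate 2 at 24 hr. Among the 11 lower probes the widest is ETV1 at -1.78 in replicate 1 at 48 hr.

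ETV1, an ETS domain factor of the PEA3 subfamily that acts downstream of fibroblast growth factor signalling, had the smallest p of all probes. Its log2 ratio was 0.25, -0.27 and 0.07 in the 3 replicates at 24 hr and -1.78, -0.88 and -0.52 at 48 hr. All 3 replicates at 48 hr lay below all 3 at 24 hr, and neomycin and control were close at 24 hr. The difference was -1.08 ± 0.32 (SE), a 2.11-fold lower ratio, with p = 0.00717 (adjusted p = 0.848, limma). ETV1 was well measured. It was above the negative controls on 11 of 16 arrays in both RNAs at 24 hr, and at 48 hr on 17 of 18 arrays in control RNA and 12 of 18 in neomycin RNA. In replicate 1 at 48 hr it was above them on 7 of 8 arrays in control RNA and 2 of 8 in neomycin RNA. The normalized log2 intensity in control RNA was 12.80, 13.93 and 15.08 in the replicates at 48 hr, each higher than in neomycin RNA, at 11.02, 13.04 and 14.56. At 24 hr the pairs were 11.98 and 12.23, 10.06 and 9.79, and 14.07 and 14.14 for control and neomycin RNA. At 0 hr the ratios were -0.58, -0.47 and 0.10, and their mean of -0.32 lay between those of the later times. Both dye orientations gave the same size, -1.04 on suffix 3 arrays (neomycin RNA in Cy3) and -1.12 on suffix 5 arrays (neomycin RNA in Cy5).

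POU4F3, the POU homeodomain factor that hair cells need, was lower at 48 hr as well. Its log2 ratio was -0.01, 0.08 and 0.02 at 24 hr and -1.60, -0.76 and -0.01 at 48 hr. The 3 replicates at 24 hr sat at 0, while those at 48 hr ran from near 0 to strongly negative, so that the groups touched without overlapping. The difference was -0.82 ± 0.35 (SE, p = 0.0391, adjusted p = 0.848, limma). The replicate with the lowest ratio was the one measured worst: in replicate 1 at 48 hr POU4F3 was above the negative controls on 0 of 8 arrays in either RNA, against 6 of 6 arrays in replicate 2 and 4 of 4 in replicate 3. At 24 hr it was above them only in replicate 3, on 4 of 4 arrays, where the ratio was 0.02. Without replicate 1 at 48 hr the difference was -0.41. GTF2F1, a subunit of the general initiation factor TFIIF, had nearly the same profile, with ratios of -0.03, -0.16 and -0.08 at 24 hr and -1.60, -1.06 and -0.03 at 48 hr. Its replicate 3 at 48 hr overlapped the earlier values, and the difference was -0.81 ± 0.35 (SE). Its replicate 1 at 48 hr was above the negative controls on 1 of 8 arrays in control RNA and 0 of 8 in neomycin RNA.

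**Figure D2:**
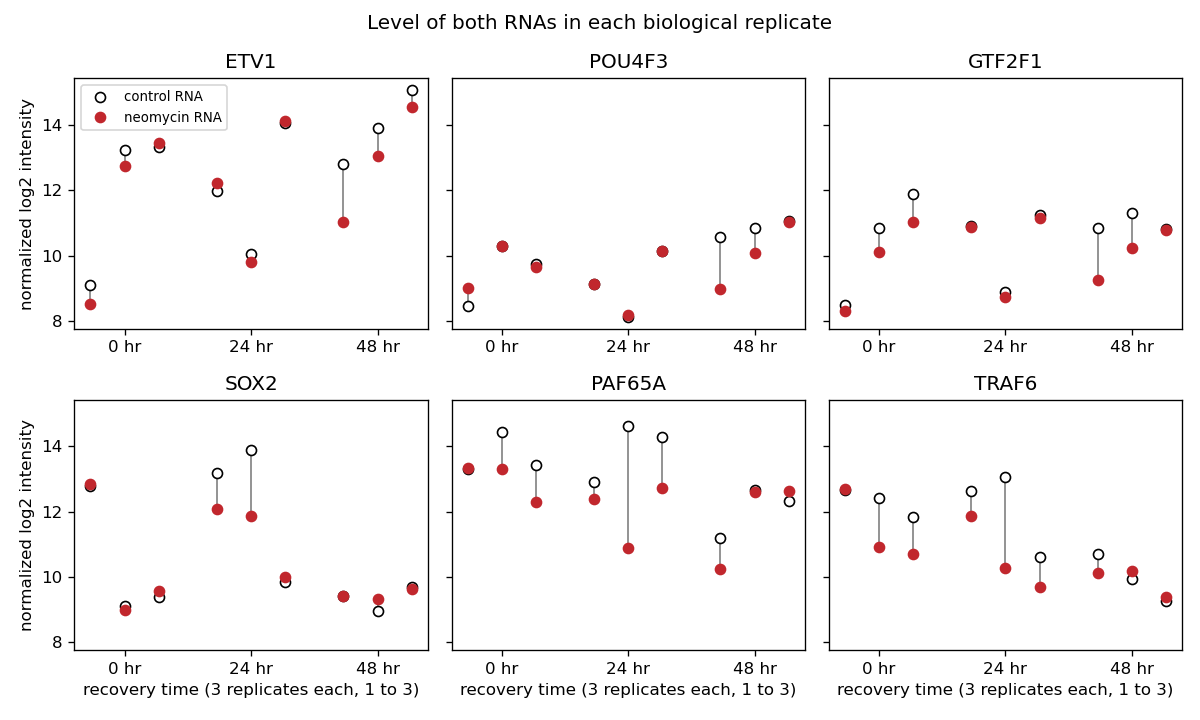
Normalized log2 intensity (y axis) of neomycin RNA (red) and control RNA (open circles) in each of the 3 biological replicates at 0 hr, 24 hr and 48 hr, for ETV1, POU4F3, GTF2F1, SOX2, PAF65A and TRAF6. The vertical line between both circles is the log2 ratio, which is longest for PAF65A in replicate 2 at 24 hr (14.63 in control RNA and 10.88 in neomycin RNA).

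FARSL, a subunit of phenylalanyl-tRNA synthetase, had ratios of 0.41, -0.07 and -0.05 at 24 hr and -0.80, -0.65 and -0.51 at 48 hr. Its 3 replicates at 48 hr lay close together and all below those at 24 hr, and the difference was -0.75 ± 0.29 (SE). SETDB1, a histone H3 lysine methyltransferase, had the tightest groups, with 0.42, 0.37 and 0.33 at 24 hr and -0.13, -0.08 and -0.23 at 48 hr. It was above 0 in 3 of 3 replicates at 24 hr and below 0 in 3 of 3 at 48 hr, as were 29 tested probes (2.26%), while 15 (1.17%) had the opposite signs. The difference was -0.52 ± 0.25 (SE, p = 0.0585, limma). At 0 hr the SETDB1 ratios were -0.29, 0.54 and -0.42, a wider spread that enters this SE. HMGIC, a high mobility group protein of growing and undifferentiated cells, was 0.00, 0.12 and 0.01 at 24 hr and -0.35, -0.22 and -0.38 at 48 hr, a difference of -0.37 ± 0.16 (SE). RBBP9, which binds the retinoblastoma protein, was -0.01, 0.57 and 0.31 at 24 hr and -0.91, 0.01 and -0.22 at 48 hr, so that its groups overlapped. Its difference was -0.66 ± 0.26 (SE). EMX1, a forebrain homeobox factor, RFP, a RING finger protein, the adenosine receptor gene ADORA2A and the gene FLJ12517 had differences of -0.60, -0.51, -0.47 and -0.60. In all, 7 of the 11 did not overlap between both times, and 9 were lowest at 48 hr in replicate 1. Of the 11, 10 had a mean above 0 at 24 hr and all 11 a mean below 0 at 48 hr. Over all tested probes, 6.08% were lower at 48 hr without overlap. The 11 were selected by p on the same values, so these counts were not free of the selection.

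The 12 genes that were higher at 48 hr all had a negative mean at 24 hr, and 5 had a positive mean at 48 hr. The mean level in control RNA was lower at 48 hr for all 12, and that in neomycin RNA for 9. Of the 11 genes with a lower ratio, 10 had a higher mean level in control RNA at 48 hr and 7 in neomycin RNA. The difference in ratio is the change in neomycin RNA minus that in control RNA, and these genes were selected by it. These counts of levels were therefore not free of the selection, and the same counts over all tested probes are not given here. Which RNA a difference came from was not tested. PAF65A, a subunit of the PCAF histone acetyltransferase complex, had the largest difference of all tested probes. Its log2 ratio was -0.54, -3.74 and -1.56 at 24 hr and -0.94, -0.06 and 0.32 at 48 hr. Neomycin RNA was below control in every replicate at 24 hr, and the groups overlapped because replicate 1 at 48 hr was lower than replicate 1 at 24 hr. The difference was 1.72 ± 0.69 (SE, p = 0.0322, adjusted p = 0.848, limma), and 0.82 without replicate 2 at 24 hr. PAF65A was well measured, above the negative controls on 14 of 16 arrays in neomycin RNA at 24 hr and 10 of 18 at 48 hr. At 0 hr its ratio was 0.03, -1.16 and -1.12.

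TRAF6, an adaptor and ubiquitin ligase between cytokine and Toll-like receptors and NF-kappaB, was -0.75, -2.79 and -0.93 at 24 hr and -0.58, 0.24 and 0.14 at 48 hr. All replicates at 48 hr lay above all at 24 hr, by a narrow gap. The difference was 1.42 ± 0.54 (SE, p = 0.0251, adjusted p = 0.848 in limma), a 2.68-fold higher ratio, and 0.77 without replicate 2 at 24 hr. TRAF6 was above the negative controls on 16 of 16 arrays in control RNA at 24 hr and on 6 of 18 at 48 hr, and its mean level in control RNA was lower at 48 hr by 2.14 on the log2 scale. That in neomycin RNA was lower by 0.71.

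PCMT1, a methyltransferase that repairs damaged proteins, had ratios of 0.15, -1.28 and -1.16 at 24 hr and 0.85, -0.13 and 0.96 at 48 hr, a difference of 1.32 ± 0.53 (SE). Its replicate 1 at 24 hr lay above its replicate 2 at 48 hr, so that the groups overlapped. HMG2, a chromatin protein of dividing cells, was -1.10, -0.63 and -0.04 at 24 hr and 0.16, 0.25 and -0.05 at 48 hr, with a difference of 0.71 ± 0.26 (SE, p = 0.0208). Replicates 1 and 2 at 24 hr, which held the negative ratios, were above the negative controls on 0 arrays, and replicate 3, above them on 4 of 4 arrays at each time, was near 0 at both. ZNF174, a zinc finger repressor, was -0.45, -2.41 and -0.61 at 24 hr and -0.16, 0.12 and -0.04 at 48 hr, and did not overlap. Its difference of 1.13 ± 0.48 (SE) was 0.51 without replicate 2 at 24 hr. MTA1, a subunit of the NuRD remodelling complex, was -0.96, -1.66 and -0.22 at 24 hr and -0.85, 0.46 and -0.17 at 48 hr, a difference of 0.76 ± 0.39 (SE). HMX1, a homeobox factor of sensory organs, differed by 0.56 ± 0.27 (SE). At 48 hr its ratio was 0.76 in replicate 1, which had the lowest share above background, and 0.02 and 0.04 in the other replicates. ARIX, a homeobox factor of autonomic neurons, differed by 0.64, GIOT-2 by 0.60, LOC91120 by 0.54, BLZF1, a Golgi-associated protein, by 0.47, and POU2AF1, a B cell coactivator of POU factors, by 0.36. Of the 12, 4 did not overlap between both times, and in 9 the lowest ratio at 24 hr was that of replicate 2. Over all tested probes, 3.98% were higher at 48 hr without overlap, and the 12 were likewise selected by p on the same values.

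Among all tested probes, whatever their signal, the 5 with the smallest p were ETV1 and 4 that lay at or near background. PAX1, a paired box factor of the axial skeleton and pharyngeal pouches, was -0.53, -0.81 and -0.24 at 24 hr and 0.53, -0.22 and 1.12 at 48 hr, a difference of 1.01 ± 0.32 (SE, p = 0.00962). It was above the negative controls on 2 of 16 arrays in neomycin RNA at 24 hr and on 0 of 18 at 48 hr, so its ratio at 48 hr compares signals at background. CROC4 differed by 0.73 ± 0.23 (SE), with -0.76, -0.69 and -0.15 at 24 hr and 0.50, -0.02 and 0.12 at 48 hr. PRDM12, a zinc finger factor of sensory neurons, was positive in every replicate at 24 hr (0.28, 0.10 and 0.16) and negative in every one at 48 hr (-0.74, -0.13 and -0.29). ZNF138 went the other way, with -0.22, -0.24 and -0.38 at 24 hr and 0.08, 0.31 and 0.23 at 48 hr. CROC4 was above the negative controls on 1 array per RNA and time.

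The hair cell and otic list held 33 probes on the array and 26 that were tested. Of the 26, 8 were higher and 18 lower at 48 hr, and 5 met the detection rule used for the genes above. Over all tested probes 652 were higher and 630 lower. The list's median difference was -0.12, against 0.01 over all tested probes, and it was 0.00 without replicate 1 at 48 hr. Such a split was not particular to this list: of 33 tested HOX cluster probes, 10 were higher and 23 lower, with a median of -0.10. At an unadjusted p under 0.05, 1 member of the hair cell and otic list was higher (SOX2) and 1 lower (POU4F3), and none passed. Over all tested probes, 1.95% were higher and 2.03% lower at that p. SOX2 had ratios of -1.09, -2.0 and 0.13 at 24 hr and 0.01, 0.35 and -0.04 at 48 hr, a difference of 1.09 ± 0.43 (SE, p = 0.0276, adjusted p = 0.848 in limma). Neomycin RNA held less SOX2 signal than control in replicates 1 and 2 at 24 hr, where the probe was bright, with 13.18 and 13.88 in control RNA and 12.09 and 11.88 in neomycin RNA on the log2 intensity scale. At 48 hr it was dim in both RNAs: the levels ran from 8.98 to 9.68, and it was above the negative controls on 1 of 18 arrays in control RNA and 2 of 18 in neomycin RNA, against 13 and 12 of 16 at 24 hr. The ratio near 0 at 48 hr was thus one of signals mostly at background. The other members at the ends of the list were POU4F2, a POU factor of retinal ganglion cells, at 0.62 ± 0.55 (SE), and NEUROG1, which starts the otic neuron lineage, at -0.58 ± 0.35 (SE). ATOH1 differed by -0.09 ± 0.21 (SE), and was above the negative controls on 2 of 16 arrays in neomycin RNA at 24 hr and 4 of 18 at 48 hr.

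Among the cell type markers, hair cell markers were below 0 and stroma markers above 0 in the mean of both dye orientations. The other types had members on both sides. Apart from POU4F3 and PMX1 (0.86 ± 0.46, SE), each of these hair cell and stroma differences was smaller than its SE. Over all tested probes, 50.9% were above 0. Of the hair cell markers, 4 were on the array and differed by -0.82 to -0.03, with BARHL1 above the negative controls on 0 arrays in either RNA at 24 hr. The 6 tested supporting cell markers ran from -0.39 (GATA3) to 1.09 (SOX2), with a median of -0.19. All 7 mesenchyme or stroma markers were above 0, from 0.02 to 0.86 with a median of 0.18. On suffix 5 arrays alone TCF21, MEOX1, MEOX2, TBX18 and POU3F4 were below 0, at -0.13, -0.19, -0.26, -0.10 and -0.11. PMX1 and TBX15 were above 0 on them, at 0.48 and 0.27. With loess within each block of the slide (metagrid, described below) POU3F4 was at -0.09. PMX1, a homeobox factor of mesenchyme, was the highest, with -0.51, -2.0 and -0.54 at 24 hr, -0.31, -0.16 and 0.01 at 48 hr (adjusted p = 0.848, limma). Of these 7, MEOX2 and POU3F4 exceeded the negative controls on 0 of 16 arrays for either RNA at 24 hr. TCF21, TBX18 and MEOX1 exceeded them on 1 of 16 for each RNA. For PMX1 the counts at 24 hr were 1 for neomycin and 5 for control, and for TBX15 5 and 3. With single replicates left out, the lowest difference of PMX1 was 0.37. The 4 tested neuron markers ran from -0.58 to 0.64, and the 6 blood cell markers from -0.33 to 0.25, with 5 of those 6 at 0 arrays in at least 1 RNA and time. The part of other cell types in the results above was not tested.

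ETS factors, many of which are targets of MAP kinase signalling, had, of the 27 lists, the highest share of members at an unadjusted p under 0.05. Of 22 tested probes, 7 were higher and 15 lower at 48 hr, 4 were lower and 1 higher at that p, and none passed. Over all tested probes, 2.03% were lower and 1.95% higher at that p. The median difference was -0.12. ETV5, which belongs to the same PEA3 subfamily as ETV1, went the opposite way, with -0.42, -0.45 and -0.27 at 24 hr and -0.05, -0.04 and 0.18 at 48 hr. Its groups did not overlap, and the difference was 0.41 ± 0.17 (SE, p = 0.0374). ETV4, the remaining member of that subfamily, was 0.26, 0.42 and 0.39 at 24 hr and 0.13, -0.10 and -0.34 at 48 hr, a difference of -0.46 ± 0.18 (SE), but was above the negative controls on at most 1 array per RNA and time. A second ETV4 probe was among the dim probes that were not tested. The epithelial ETS factors ELF5 and EHF differed by -0.55 ± 0.19 and -0.45 ± 0.18 (SE), both without overlap. Over all alternative ways of processing, ELF5 ran from -0.91 to -0.19 and EHF from -0.76 to -0.02. ELF3, which is also epithelial, differed by 0.31 ± 0.39 (SE) and changed sign to -0.20 without replicate 2 at 24 hr. Of the 22 probes, 4 met the detection rule, and 8 (36.4%) lay in metagrid 3 of the slide, described below, which held 23.1% of all tested probes.

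In the network of paired box, sine oculis, eyes absent and dachshund homologues, which sets up the otic placode, 10 of 16 tested probes were higher and 6 lower, with a median of 0.03. PAX1 and SIX4 were highest, at 1.01 and 0.55 ± 0.47 (SE), and SIX2 and PAX6 lowest. SIX2 was -0.26, 0.27 and -0.10 at 24 hr and -1.20, -0.34 and -0.47 at 48 hr, a difference of -0.64 ± 0.25 (SE, p = 0.0275) without overlap. PAX6, in metagrid 3, differed by -0.42 ± 0.19 (SE), and by -0.16 with loess within each metagrid. SIX2 differed by -0.62 with that loess. Both probes were dim. At 24 hr the signal of each exceeded the negative controls on 1 of 16 arrays for neomycin and 0 for control. At 48 hr SIX2 exceeded them on 4 of 18 arrays for neomycin and 5 for control, and PAX6 on 2 and 4. Of the 6 GATA factors and partners, 4 were lower, with a median of -0.28. GATA3, which the developing cochlea needs, was 0.46, 0.28 and 0.18 at 24 hr and 0.00, 0.12 and -0.37 at 48 hr, and GATA4 was -0.12, 0.14 and -0.04 at 24 hr and -0.72, -0.30 and -0.16 at 48 hr. Neither overlapped between both times, and 6.08% of all tested probes were lower in this way. Their differences were -0.39 ± 0.23 and -0.38 ± 0.21 (SE), while TRPS1 and GATA1 were at 0.34 and 0.08. GATA3 was above the negative controls on 6 and 2 of 16 arrays in neomycin and control RNA at 24 hr. At 48 hr it was above them on 1 of 18 in each. GATA4, in metagrid 3, differed by -0.73 on suffix 3 arrays and -0.04 on suffix 5 arrays. With loess within each metagrid GATA4 differed by -0.17.

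Medians of the signalling pathway lists ran from -0.05 (Notch) to 0.09 (TGF-beta and BMP), against 0.01 over all tested probes. The share that was higher at 48 hr was 44.4% for Notch, 33.3% for Wnt and 66.7% for TGF-beta and BMP. It was 60.7% for the NF-kappaB, IRF, STAT and NFAT list and 50.9% over all tested probes. In the Notch list, 4 of 9 tested probes were higher and 5 lower. At an unadjusted p under 0.05 were 0 of them, against 1.95% (higher) and 2.03% (lower) of all tested probes. HES2 and HES7, repressors of the hairy family, had the highest differences, 0.69 ± 0.60 and 0.30 ± 0.75 (SE), and both rested on replicate 2 at 24 hr: HES7 was 1.15, -2.50 and 0.47 at 24 hr and 0.47, -0.30 and -0.14 at 48 hr, and without that replicate the difference was -0.80. HEYL and RBPSUHL were lowest, at -0.36 ± 0.30 and -0.45 ± 0.32 (SE). HEYL, in metagrid 3, differed by -0.81 on suffix 3 arrays and 0.09 on suffix 5 arrays. In the Wnt list of beta-catenin, genes named TCF and co-regulators, 3 of 9 were higher and 6 lower. Its TCF members were taken by name. The study's gene tables describe TCF3 as the E2A immunoglobulin enhancer factor and TCF8 as a repressor of interleukin 2. TCF3 was counted among the basic helix-loop-helix factors as well. TCF8, a zinc finger repressor with a homeodomain, was -0.18, -0.06 and -0.21 at 24 hr and 0.55, 0.12 and 0.24 at 48 hr, a difference of 0.46 ± 0.20 (SE, p = 0.048). It was above the negative controls on at most 2 arrays per RNA and time. TCF4, a name used both for the Wnt factor TCF7L2 and for a basic helix-loop-helix factor, differed by 0.41 ± 0.26, and was counted in both lists. TCF7L2 had a probe of its own, at -0.19 ± 0.46 (SE). CTNNB1, which encodes beta-catenin, differed by 0.39 ± 0.41, while PPARG and PPARGC1 differed by -0.35 ± 0.30 and -0.35 ± 0.32 (SE). In the TGF-beta and BMP list, 12 of 18 were higher and 6 lower, with a median of 0.09. ID1, an inhibitor of helix-loop-helix factors that BMP signalling induces, was -0.13, -2.85 and 0.41 at 24 hr and 0.69, -0.14 and 0.05 at 48 hr. Its difference of 1.06 ± 0.78 (SE) was 0.06 without replicate 2 at 24 hr. The lowest members were the SMAD genes MADH6, an inhibitor of the pathway, at -0.42 ± 0.20, and MADH2, a mediator, at -0.39 ± 0.44 (SE). MADH6, in metagrid 3, differed by -0.77 on suffix 3 arrays and -0.07 on suffix 5 arrays. In the list of NF-kappaB, IRF, STAT and NFAT factors, 17 of 28 were higher, with a median of 0.01. TRAF6 and NFATC1 were highest, at 1.42 and 0.56 ± 0.38, and NFKBIL1 and RELB lowest, at -0.44 ± 0.21 and -0.41 ± 0.30 (SE).

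**Figure D3:**
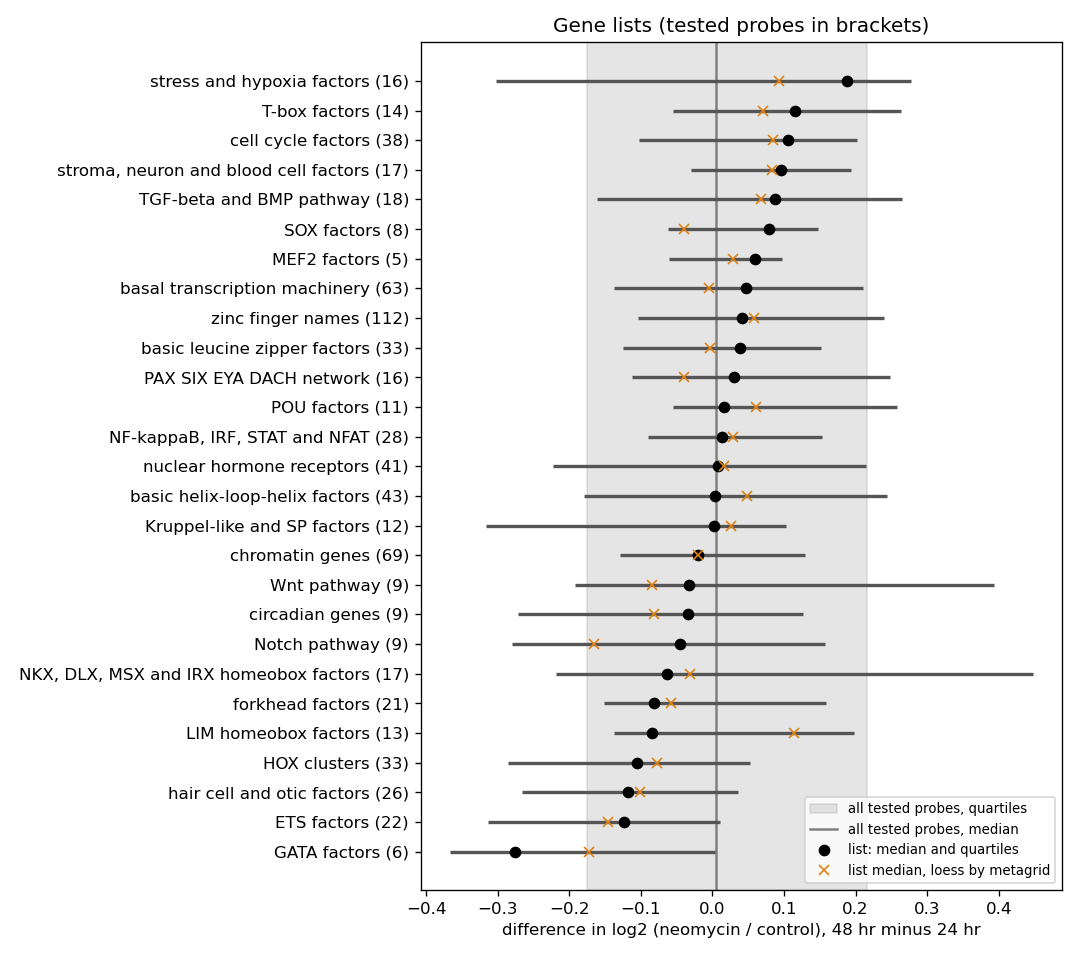
Median (dots) and quartiles (lines) of the difference in log2 ratio, 48 hr minus 24 hr (x axis), for the tested probes of 27 gene lists, with the quartiles and median of all 1282 tested probes in grey and the list medians after loess within each metagrid of the slide as crosses. List medians run from -0.28 for the 6 GATA probes to 0.19 for the stress and hypoxia list, and 16 of the 27 are above 0.

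Cell cycle genes are of interest because supporting cells divide in this period. Of 38 tested probes, 24 were higher and 14 lower at 48 hr, with a median of 0.11. At an unadjusted p under 0.05, 1 was higher and 1 lower, against 1.95% and 2.03% over all tested probes, and none passed. E2F5, which works with retinoblastoma-related proteins, was -0.39, -0.27 and -0.32 at 24 hr and 0.48, -0.19 and 1.13 at 48 hr, a difference of 0.80 ± 0.30 (SE, p = 0.0233). Its groups did not overlap, but its signal exceeded the negative controls on 2 of 16 arrays per RNA at 24 hr and 0 of 18 at 48 hr. RBBP9 was the lowest member and MNT, which competes with MYC for its partner, the next, at -0.43 ± 0.64 (SE). MNT was 0.46 without replicate 1 at 24 hr. Basic leucine zipper factors had 20 of 33 higher, with a median of 0.04. The AP-1 member FOSL2 was highest at 0.63 ± 0.53, which was -0.16 without replicate 1 at 24 hr, followed by HLF at 0.42 ± 0.35 (SE). The stress-induced ATF3 and the cyclic AMP-responsive CREB1 were lowest, at -0.66 ± 0.31 and -0.58 ± 0.27 (SE). ATF3 was above the negative controls on 0 arrays. NRF, named as an NF-kappaB repressing factor in the study's gene tables and a member of none of the lists, was -1.24, -0.76 and 0.09 at 24 hr and -0.16, 0.92 and -0.04 at 48 hr, a difference of 0.88 ± 0.37 (SE, p = 0.0377).

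Lists of the general machinery had members on both sides of 0. Of 63 tested probes for the basal transcription machinery, 36 were higher and 27 lower, with a median of 0.05. At an unadjusted p under 0.05 lay 2 in each direction, against 1.95% higher and 2.03% lower over all tested probes, and none passed. PAF65A and TCEB1, a subunit of elongin, were highest. TCEB1 was 0.02, -2.93 and 0.09 at 24 hr and 0.17, 0.05 and 0.17 at 48 hr, so its difference of 1.08 ± 0.65 (SE) was 0.08 without replicate 2 at 24 hr, although the probe was bright, above the negative controls on 18 of 18 arrays in both RNAs at 48 hr. GTF2F1 and GTF2H4, a subunit of TFIIH, were lowest, the latter at -0.53 ± 0.38 (SE). Of 69 chromatin probes, 32 were higher and 37 lower, with a median of -0.02. BRD1, a bromodomain protein, was -0.72, -2.79 and -0.19 at 24 hr and -0.80, 0.25 and 0.14 at 48 hr, and differed by 1.10 ± 0.58 (SE), or 0.32 without replicate 2 at 24 hr. MTA1 followed it, and RBBP9 and SETDB1 were lowest. Of 112 probes named as zinc fingers, 63 were higher and 49 lower, with a median of 0.04. At an unadjusted p under 0.05, 5 were higher and 1 lower, against 1.95% and 2.03% over all tested probes. Of the 112, 15 met the detection rule. ZNF10, a repressor of the KRAB family, had the second largest difference of all, 1.64 ± 0.98 (SE), from 0.00, -4.49 and -1.43 at 24 hr and -1.34, 0.46 and -0.12 at 48 hr, and 0.38 without replicate 2 at 24 hr. ZNF174 came next, and ZNF268 and ZNF12 were lowest, at -0.62 ± 0.26 and -0.58 ± 0.28 (SE). Of 43 basic helix-loop-helix probes, 22 were higher and 21 lower. MYF5, a muscle determination factor, differed by 1.13 ± 0.70 (SE), from 0.07, -3.03 and -1.26 at 24 hr and -0.77, -0.02 and -0.04 at 48 hr, and the clock factor NPAS2 by -0.49 ± 0.22 (SE). In the list of stroma, neuron and blood cell factors 11 of 17 were higher and 6 lower, with PMX1 and ARIX at the top and NEUROG1 and SPI1 at -0.58 and -0.33 ± 0.23 (SE) at the bottom.

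Differences varied with the place of a probe on the slide. Each array was printed as 4 blocks, or metagrids, numbered here by row. The median difference was -0.03 in metagrid 1, 0.12 in metagrid 2, -0.17 in metagrid 3 and 0.06 in metagrid 4. Of the 26 probes that were lower at an unadjusted p under 0.05, 17 lay in metagrid 3, which held 296 of the 1282 tested probes (23.1%), and of the 25 that were higher, 7 lay in metagrid 2 and 12 in metagrid 4. Of the 11 named genes that were lower, 6 lay in metagrid 3 (RBBP9, FARSL, EMX1, RFP, FLJ12517 and SETDB1). On suffix 3 arrays these 6 differed by -1.14 to -0.99 and on suffix 5 arrays by -0.36 to 0.08, and the median over all probes of metagrid 3 was -0.38 on suffix 3 arrays and 0.08 on suffix 5 arrays. ETV1 lay in metagrid 4, POU4F3 and GTF2F1 in metagrid 2, and HMGIC and ADORA2A in metagrid 1. With loess fitted within each metagrid, an alternative chosen after this was seen, the 6 genes differed by -0.56 to -0.34, ETV1 by -0.97, POU4F3 by -0.90, PAF65A by 1.43, TRAF6 by 1.56 and SOX2 by 1.22. Then 27 probes were higher and 17 lower at an unadjusted p under 0.05, and 23 were called in the same direction by both fits. The list members MADH6, MADH2, HEYL, NEUROG1, NPAS2 and SPI1 also lay in metagrid 3. They differed by -0.27, -0.32, -0.17, -0.45, -0.32 and -0.15 with loess within each metagrid. HES7, MYF5 and PMX1, which were higher at 48 hr, lay there as well, at 0.35, 1.31 and 1.03 with that loess.

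**Figure D4:**
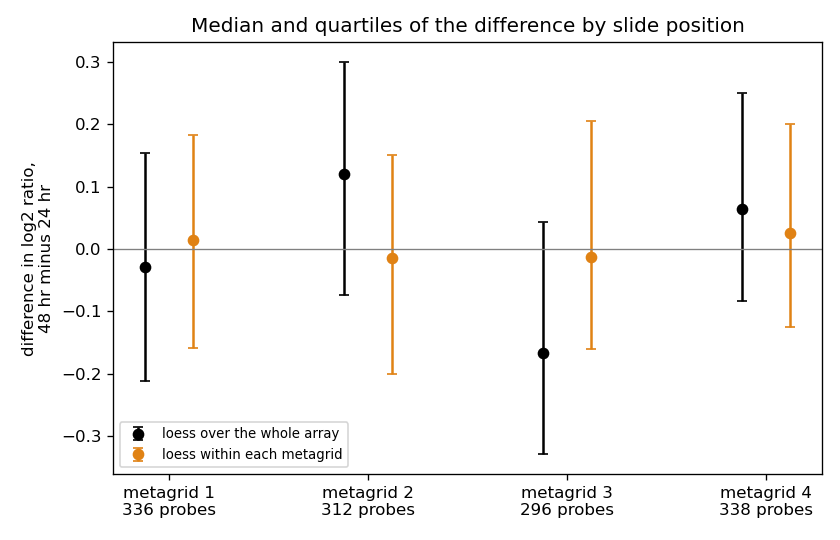
Median (points) and quartiles (bars) of the difference in log2 ratio, 48 hr minus 24 hr (y axis), over the tested probes of each of the 4 metagrids, after loess over the whole array (black) and within each metagrid (orange). The black medians run from -0.17 to 0.12 and the orange ones from -0.01 to 0.03.

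Both dye orientations are a further view of the same RNA pairs. The difference had the same sign on suffix 3 and on suffix 5 arrays for 56.9% of all tested probes, for 48 of the 51 at an unadjusted p under 0.05 and for 22 of the 23 named genes. The exception among the named genes was RFP, at -1.11 and 0.08. A difference that is large in the mean has to be large in at least one orientation, so the share among the selected probes was not free of the selection. PAF65A, PCMT1, ZNF174, ETV1 and ADORA2A had both values close together, with 1.75 and 1.69 for PAF65A and -0.44 and -0.50 for ADORA2A, while HMX1 (1.00 and 0.12) and POU2AF1 (0.65 and 0.08) rested mainly on suffix 3.

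**Figure D5:**
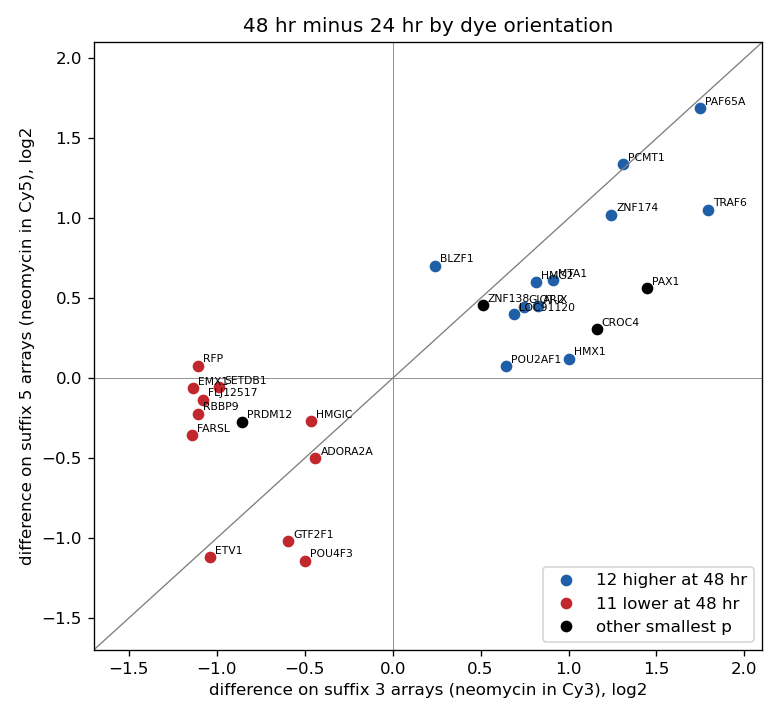
Difference in log2 ratio, 48 hr minus 24 hr, on suffix 3 arrays (x axis) and suffix 5 arrays (y axis) for the 23 named genes and the 4 further probes among the 5 with the smallest p, with the grey diagonal marking equal values. Most lower genes of metagrid 3 stand at the left near 0 on the y axis, while ETV1 (-1.04 and -1.12) and PAF65A (1.75 and 1.69) lie near the diagonal.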

How the data were processed

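The authors scanned two-colour arrays of neomycin against control RNA and deposited, per the file headers, ImaGene intensities of each dye with local background, without normalization. Their deposited matrix of log2 ratios equalled the unnormalized ratio of spot means on 51 of 51 arrays, and was used only as an alternative. The labels' suffix gave the dye of neomycin RNA, and the neomycin dye in the header's image name matched it on 51 arrays. For the control, that name gave the dye of neomycin a second time on 1 array at 0 hr, and on 6 arrays, those of replicate 1 at 24 hr, it read Coch instead of a control label. The suffix was followed on all of them.

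Intensities were analysed with R 4.3.3 and limma 3.58.1, and drawn with matplotlib 3.10.9. Spot means were corrected by normexp (offset 50) and loess within each array, with controls at weight 0. Of 1536 probes, 19 negative controls and 8 mismatch probes were left out, and of the remaining 1509 the dimmest 15% (227). Both spots of a probe were averaged, then arrays within suffix, then suffixes. Arrays of a replicate are technical copies, whose number limits the precision. Differences were fitted with lmFit and eBayes over 9 replicates and adjusted by Benjamini-Hochberg. Levels of single RNAs came from loess followed by Aquantile scaling. The labels call replicates separate biological samples. The fit was tested on simulated data.

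The genes described were the 12 detected probes with the smallest p in each direction, the 5 with the smallest p of all, and, for the lists described in detail, the 2 highest and 2 lowest members. One of the 12 lower probes is not reported here. EHF, ETV4, CTNNB1, ATOH1, TCF7L2 and NRF were added after their values were seen. NRF had first been placed with the basic leucine zipper factors and was taken out for its identity, also after its values were seen. The comparison, lists and markers were chosen with earlier results of these data known. Of 1507 gene names, 816 matched a symbol or synonym of the chicken RefSeq annotation.

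The labels give both times the replicate numbers 1 to 3. Deviations from the group means of same-numbered replicates correlated at -0.05, -0.13 and 0.06, so the numbers were not taken as pairs. No quantification date held arrays of both times (6 dates at 24 hr and 4 at 48 hr). Quantification date and recovery time therefore cannot be told apart in any difference given here.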

Additional observations from a re-analysis of the deposited data

Results flagged for a closer look

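In 4 of the named probes, every replicate of one time lay on one side of 0 and every replicate of the other time on the opposite side. These were HMGIC, with a difference of -0.37, SETDB1, with -0.52, PRDM12, with -0.56, and ZNF138, with 0.48. Over all 1282 tested probes, 15 were negative in all replicates at 24 hr and positive in all at 48 hr (1.17%), and 29 the opposite (2.26%). The difference itself was tested in limma and had an adjusted p of 0.848 for each of the 4. SETDB1 and PRDM12 lay in metagrid 3, where the median difference was -0.17, and after loess within metagrids they differed by -0.42 and -0.34. At 24 hr SETDB1 exceeded the negative controls on 9 of 16 arrays for neomycin and 7 for control. The counts at 24 hr were 4 and 4 for HMGIC, 1 and 1 for PRDM12 and 1 and 0 for ZNF138. At 48 hr, of 18 arrays, they were 16 and 18 for SETDB1 and 5 and 5 for HMGIC. PRDM12 had 6 and 4 at 48 hr, and ZNF138 had 6 and 3. The HMGIC ratios at 24 hr included 0.0017 and 0.014, both close to 0.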

How the results depend on the processing

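Under 27 alternatives the number of probes passing stayed at 0, apart from 2 fits on single arrays. When dates of quantification formed the random block (within-date correlation 0.20) 14 passed, the higher ones PAF65A, PXN, TRAF6, PCMT1, BRD1, SOX2, TRIM15, NRF, ZNF44, FLJ20392 and HMG2 and the lower ones SIX2, POU4F3 and ETV1. With array weights and the replicate as a random block 5 passed, which were PAF65A, FOG2, TRAF6, DCTN2 and BRD1. The first of these counts technical arrays of a biological sample as separate where they were quantified on different dates. With the replicate block 0 passed, and 23 probes were higher and 20 lower at an unadjusted p under 0.05. That block changed no call. Without each replicate in turn 0 passed, the higher probes at that p numbered 13 to 55 and the lower ones 12 to 41.

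All 27 named probes kept their direction in most alternatives, with a lowest count of 26. List medians kept their sign in fewer: 17 of 27 with plain background subtraction, 16 on suffix 5 arrays alone and 16 with replicate 2 at 24 hr and replicate 1 at 48 hr both left out, an alternative chosen after seeing the data, and 20 to 24 when single replicates were left out. The ETS median ran from -0.25 to 0.09 over all alternatives and the hair cell and otic median from -0.20 to 0.12.

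Directions that turned were these. Plain subtraction gave ZNF138 -0.0027, TRPS1 -0.29, FOSL2 -0.46, MNT 0.23, SPI1 0.25 and TCF7L2 0.025. Suffix 3 arrays alone gave TCF7L2 0.18. No background correction gave ELF3 -0.020, HES7 -0.14 and GATA1 -0.020. Array weights gave HMX1 -0.0069, ELF3 -0.12, HES2 -0.030, HES7 -0.035 and TRPS1 -0.14. Suffix 5 arrays alone gave RFP 0.078, SIX4 -0.22, HES2 -0.27 and HEYL 0.094. Loess within metagrids gave GATA1 -0.071. Leaving out both replicates gave ELF3 -0.46, HES2 -0.37, HES7 -1.03, ID1 -0.18, RELB 0.0053 and GTF2H4 0.040. With single replicates left out, MNT ran from -1.21 to 0.46 and FOSL2 from -0.16 to 1.16, both turning without replicate 1 at 24 hr, and ELF3 from -0.20 to 0.60, HES2 from -0.049 to 1.32 and HES7 from -0.80 to 1.02, all turning without replicate 2 at 24 hr. TCF7L2 ran from -0.80 to 0.13 and turned without replicate 1 or 3 at 24 hr or replicate 2 at 48 hr. The cause of these shifts was not tested. Dim signal limits many genes: 471 of 1282 tested probes were at 0 arrays above the negative controls in at least 1 RNA and time.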
